A study of Mus musculus with 6 samples.

Results

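The markers described here are 10 genes by which *Pi16*+ *Dpp4*+ fibroblasts of interstitial and adventitial connective tissue are recognized, namely *Pi16*, *Dpp4*, *Dpt*, *Clec3b*, *Cd34*, *Cd55*, *Ly6a*, *Ly6c1*, *Anxa3* and *Pdgfra*. They were taken by symbol from the 23352 gene symbols measured, and 10 of 10 were found. RNA-seq was performed on 6 sorted populations of stromal cells (P1 to P6) of the omentum, the fat apron of the abdomen, of WT C57BL/6 mice. Each population was 1 library, so that no difference has a replicate check, and the number of mice behind a library is not given in the sources used here. The age and sex of the mice are also not given there. P1, P2 and P3 were CD45- CD140a+ CD105+ cells with high, intermediate and low ALDH activity, the activity of aldehyde dehydrogenases in a fluorescent assay. P4 and P5 were CD45- CD140a+ CD105- cells with intermediate and low ALDH activity, and P6 was CD45- CD140a-low and ALDH-positive. No agent or engineered allele was part of these groups.

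Fibroblasts that carry these markers lie in the outer sheath of blood vessels and in the connective tissue layers around organs. In adipose tissue they are known as early progenitors, which give rise to committed preadipocytes and to other fibroblasts. Several of the markers are surface proteins by which the cells are sorted, others are secreted into the matrix, and *Anxa3* encodes a protein of the cell interior.

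Levels are FPKM, fragments per kilobase of transcript per M mapped reads, as deposited. The depth behind them was estimated, from the steps between low values, as 53.9, 61.3, 60.8, 57.9, 61.7 and 36.9 M reads in P1 to P6. A ratio is given with its 95% interval from the reads estimated for both libraries, which covers counting error only and leaves out the spread between mice and sorts. A gene was called higher or lower past 2 times, on FPKM + 0.1, among genes with at least 1 FPKM in a library of the comparison. In these bulk libraries, fewer cells of a type and less RNA per cell cannot be told apart.

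*Pdgfra*, the receptor for platelet-derived growth factor known as CD140a, was at 152, 154, 153, 119, 117 and 5.36 FPKM in P1 to P6. P6 was gated on low CD140a, so its low level there is not a result. Within the 5 CD140a+ populations its highest level was 1.32 times its lowest. Its levels in P1, P2 and P3 could not be told apart by counting, with ratios of 1.01 (0.991 to 1.03) for P2 over P3 and 1.01 (0.988 to 1.02) for P3 over P1, and their order changed with the scaling of the libraries. *Pdgfra* lies on chr5:75152292-75198215 on the plus strand of GRCm38, the build behind the deposited values, where the GENCODE annotation gives every position below.

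**Figure D1:**
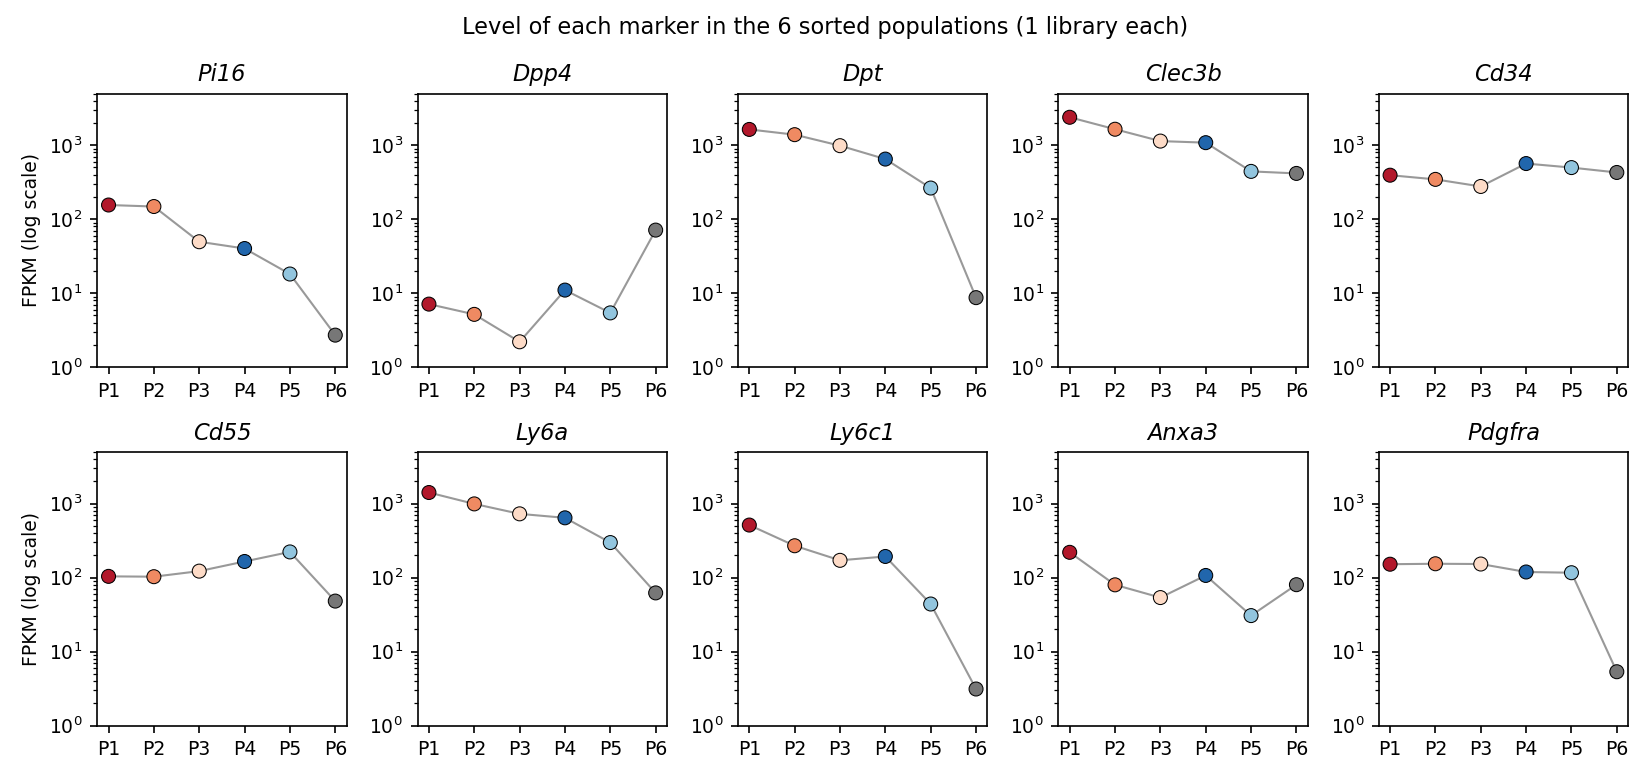
FPKM of each of the 10 markers, on a log axis, in populations P1 to P6, where each point is 1 library and the line only joins the points. *Dpt* ran from 1634 in P1 to 8.70 in P6, whereas *Dpp4* was highest in P6, at 71.2.

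Of the secreted markers, *Pi16*, a peptidase inhibitor found in the matrix (chr17:29317680-29330593, plus strand), was at 156, 148, 49.6, 40.2, 18.2 and 2.71 FPKM in P1 to P6. Its level was alike in P1 and P2 and stepped down below them. P1 exceeded P2 by 1.05 times (1.02 to 1.08), a difference that turned round under quantile normalization. P2 exceeded P3 by 2.99 times (2.87 to 3.12), and P4 exceeded P5 by 2.21 times (2.06 to 2.37). From CD105+ to CD105- cells, *Pi16* fell by 3.69 times (3.53 to 3.87) at intermediate ALDH and by 2.73 times (2.55 to 2.92) at low ALDH. About 104 reads lay behind its level in P6, where P5 exceeded P6 by 6.70 times (5.48 to 8.27).

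*Dpt*, which encodes dermatopontin, a protein that binds collagen fibrils (chr1:164796644-164824266, plus strand), was at 1634, 1389, 986, 649.6, 264 and 8.70 FPKM in P1 to P6. It stood at rank 15 among all genes in P1 and at rank 6743 in P6. Its levels fell in the order P1 to P6 without exception, and every neighbouring pair differed beyond counting error. The step from P5 to P6 was 30.3 times (27.7 to 33.2). P2 exceeded P4 by 2.14 times (2.12 to 2.16), which became 1.90 with quantile normalization.

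*Clec3b*, which encodes tetranectin, a secreted C-type lectin that binds plasminogen (chr9:123150946-123157432, plus strand), was the most abundant of the 10 markers in P1, P2, P3 and P4. It was at 2387, 1645, 1137, 1082, 443 and 416 FPKM in P1 to P6. Unlike *Dpt*, it was nearly as high in P6 as in P5, with a ratio of 1.07 (1.04 to 1.09) for P5 over P6 that turned round after division by *Gapdh*. The order of P3 and P4, at 1.05 (1.04 to 1.06), turned round with quantile normalization. *Dpt* was at between 0.596 and 0.867 of the FPKM of *Clec3b* in P1 to P5, and at 0.0209 in P6. This quotient is taken within a library, and a factor applied to a whole library leaves it as it is.

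*Dpp4*, a surface peptidase known as CD26 that trims peptides and chemokines (chr2:62330073-62412231, minus strand), was at 7.12, 5.17, 2.20, 11.01, 5.42 and 71.2 FPKM in P1 to P6. Of the 10 markers it was the one with its highest level in P6, which exceeded P4 by 6.47 times (6.23 to 6.73). P5 and P2 could not be told apart by counting, with a ratio of 1.05 (0.977 to 1.12), and P2 stood above P5 under 3 of 4 scalings. Within each CD105 class *Dpp4* was higher at intermediate than at low ALDH, by 2.35 times (2.15 to 2.57) for P2 over P3 and by 2.03 times (1.92 to 2.16) for P4 over P5. Both were below 2 times with a pseudocount of 1, at 1.93 and 1.87, and the second also with a common sum of FPKM. Between the classes it was lower in CD105+ cells, at 0.470 times (0.442 to 0.499) for P2 over P4 and at 0.407 times (0.372 to 0.445) for P3 over P5. The first of these 2 calls was lost with a pseudocount of 1 and with 3 of the 4 scalings, that is *Gapdh* division, quantiles and the median of ratios, and the second with division by *Gapdh*.

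The pair of genes that names these fibroblasts thus stood in opposite order in P6. *Pi16* was at 21.9 times the FPKM of *Dpp4* in P1, 28.7 times in P2, 22.5 times in P3, 3.65 times in P4 and 3.35 times in P5. In P6, *Dpp4* was at 26.3 times the FPKM of *Pi16*. The quotient lay between 21.9 and 28.7 in the CD105+ populations and between 3.35 and 3.65 in the CD105- populations, with 1 library for each. How often other pairs of genes separate these populations was not computed. In P6, where *Dpp4* was highest, mesothelial genes were also high. Of 12 mesothelial markers 11 were found, and they summed to 79.5, 103, 162, 1090.1, 875 and 3366 FPKM in P1 to P6. The most abundant, *Upk3b*, was at 1140 FPKM in P6, *Msln* was at 171 there and at 0.127 in P1, and no marker of the list was at 0. In P6 over the mean of P1 to P5, 10 of the 11 were higher, against 11.8% of 12904 genes. Their part in the level of *Dpp4* was not tested.

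**Figure D2:**
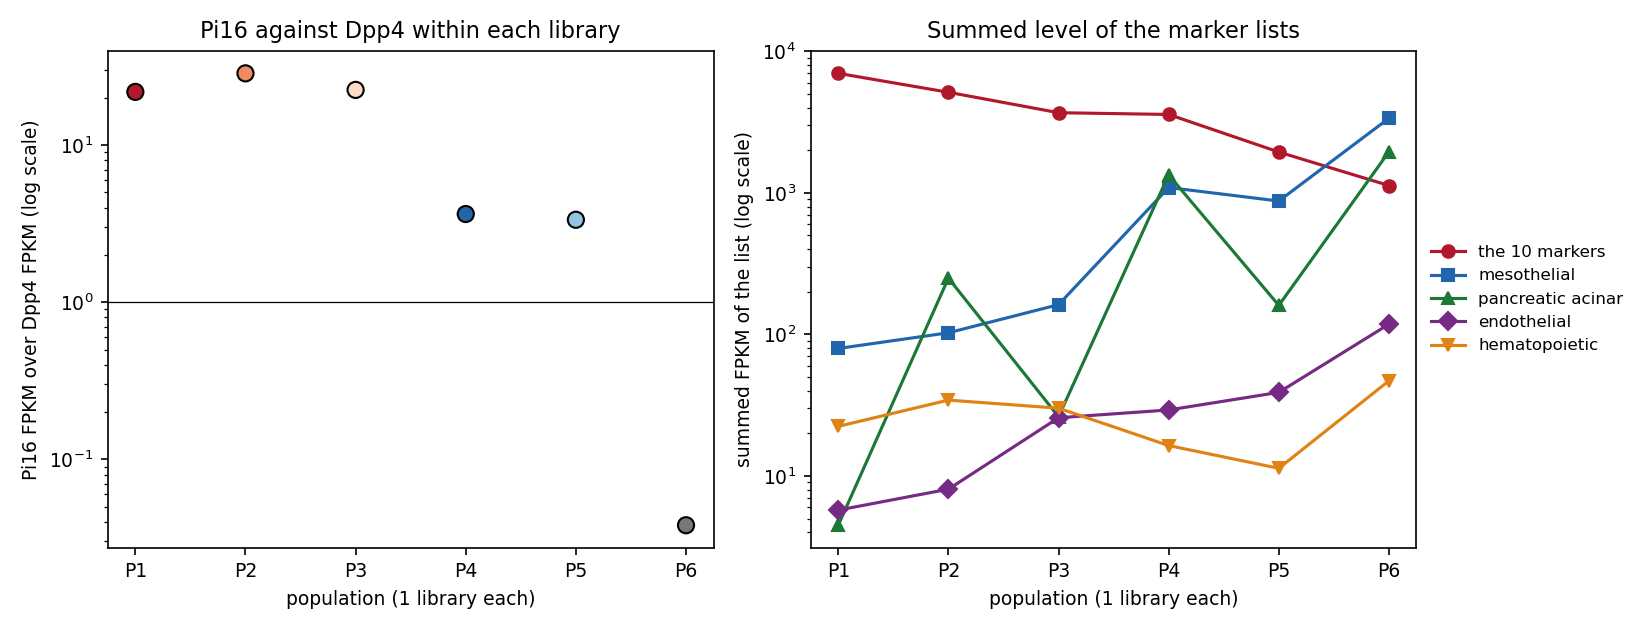
Left, FPKM of *Pi16* over that of *Dpp4* within each library, on a log axis, with a line at 1. Right, summed FPKM of the 10 markers and of 4 other lists in the same libraries, on a log axis. The quotient was between 3.35 and 28.7 in P1 to P5 and 0.038 in P6, where the mesothelial list summed to 3366 FPKM.

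The promoters of *Pi16* and *Dpp4* are shown for their sequence, and their part in the levels was not tested. RefSeq (GRCm38.p6) gave a window for 7 of the 10 markers, and the 250 bases before the annotated start are printed 5′ to 3′, with capitals at matches to any of 6 motifs searched on both strands. Of all 32851 windows of this length, 12.4% hold the TATA box, TATAAA, 33.8% hold the CCAAT box, spelled as its name, and 32.7% hold the GC box, GGGCGG. The AP-1 motif, spelled TGANTCA, is held by 6.75%, the EBF motif, TCCC followed after any 2 bases by GGGA, by 0.779%, and the half-site of nuclear receptors, AGGTCA, by 14.0%. No 2 matches in the windows shown overlapped. The *Pi16* window lies at chr17:29318632-29318881 on the plus strand, within the span that GENCODE gives the gene, that of *Dpp4* at chr2:62412232-62412481 on the minus strand, and that of *Ly6c1*, described below, at chr15:75048838-75049087 on the minus strand.
Pi16: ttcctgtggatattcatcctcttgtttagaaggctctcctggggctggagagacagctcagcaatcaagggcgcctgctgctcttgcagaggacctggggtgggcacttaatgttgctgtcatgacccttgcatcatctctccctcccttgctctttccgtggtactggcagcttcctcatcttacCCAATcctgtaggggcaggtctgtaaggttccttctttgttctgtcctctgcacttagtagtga
Dpp4: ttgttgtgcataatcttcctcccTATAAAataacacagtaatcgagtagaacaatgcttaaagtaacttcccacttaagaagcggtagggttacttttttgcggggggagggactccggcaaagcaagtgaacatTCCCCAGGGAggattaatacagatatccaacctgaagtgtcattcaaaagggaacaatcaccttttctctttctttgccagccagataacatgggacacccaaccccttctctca
Ly6c1: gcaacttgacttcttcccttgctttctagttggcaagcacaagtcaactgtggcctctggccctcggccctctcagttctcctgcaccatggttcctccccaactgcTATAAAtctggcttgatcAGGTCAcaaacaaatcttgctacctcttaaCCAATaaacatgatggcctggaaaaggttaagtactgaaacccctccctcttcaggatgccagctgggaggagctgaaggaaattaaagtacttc
The *Pi16* window held the CCAAT box once, that of *Dpp4* held the TATA box and the EBF motif once each, and that of *Ly6c1* held the TATA box, the CCAAT box and the half-site once each. RefSeq gives *Ly6c1* a further start, and that window held none of the 6. The *Cd55* window held the GC box at 2 places. The windows of *Dpt*, *Cd34* and *Pdgfra* held none of the 6. A match is a match of letters and no evidence that a factor binds.

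Among the surface markers anchored by a lipid, *Ly6a*, which encodes the stem cell antigen SCA-1 (chr15:74994877-74998031, minus strand), was at 1417, 994, 729.5, 645, 298 and 62.3 FPKM in P1 to P6. Its order of populations was that of *Pi16*, *Dpt* and *Clec3b*, and each neighbouring pair differed beyond counting error. Over P1 to P5 its profile was close to that of *Clec3b*, with a root mean square difference of 0.0714 in log2 FPKM after centring, the smallest of the 45 pairs of markers, and over all 6 populations the difference was 0.767.

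*Ly6c1*, which encodes a surface antigen also known from monocytes and endothelial cells (chr15:75044018-75048830, minus strand), was at 515, 270.3, 172, 194, 44.1 and 3.13 FPKM in P1 to P6. Within P1 to P5 it had the widest range of the 10 markers, 11.7 times between P1 and P5. P1 exceeded P2 by 1.90 times (1.84 to 1.97), P2 exceeded P3 by 1.57 times (1.51 to 1.64), and P4 exceeded P5 by 4.39 times (4.08 to 4.73). P3 and P4 stood close together, and P4 was above P3 by 1.13 times (1.08 to 1.18) except after division by *Gapdh*, when P3 was above P4. About 37 reads lay behind its level in P6. Because endothelial cells carry *Ly6c1*, their defining markers were read beside it. *Pecam1* was at most 0.992 FPKM and *Cdh5* at most 0.343 in the 6 libraries, and the 12 endothelial markers summed to 5.73, 8.06, 25.8, 29.2, 38.9 and 118 FPKM in P1 to P6, of which *Esam* and *Kdr* made up 62.0 and 46.9 in P6. Of them *Plvap* had the highest level in P1, P2, P3 and P5, at most 26.8 FPKM, and *Esam* in P4 and P6, at 62.0 in P6. In all, 8 of the 12 were at or below 1 FPKM in every library, and *Cldn5* was listed at 0 in P4 and *Erg* in P6. *Pecam1* was at 0.518, 0.370, 0.552, 0.0672, 0.0955 and 0.992 FPKM in P1 to P6. *Pecam1*, *Cdh5*, *Tie1* and *Emcn* had higher values in P2 than in P4 and in P3 than in P5, as *Ly6c1* did. Each of them was below 1 FPKM in every library. Of the 3 endothelial markers tested in P2 over P4 and in P3 over P5, none was higher. In both, *Esam* and *Kdr* were lower, 2 of 3 against 7.63% and 6.29% of all genes. *Plvap*, also tested, was within 2 times, at 0.526 and 0.802. The endothelial part in the level of *Ly6c1* was not tested.

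The level of *Ly6c1* is uncertain, since reads of 76 nt cannot always be given to it alone. Of the 76-nt windows in its transcripts, 18.5% also occur in another gene, 14.5% in *Ly6c2* and 4.08% in *Ly6a*. *Ly6c2* followed it, at 89.8, 49.1, 26.9, 32.3, 7.42 and 1.17 FPKM in P1 to P6, and *Ly6c1* was at between 5.51 and 6.39 times its FPKM in P1 to P5 and at 2.67 times in P6. Their coding sequences of 393 bases differ at 9, an identity of 97.7%. The first 150 bases of each are given as annotated, with the 6 differing bases in capitals.
Ly6c1: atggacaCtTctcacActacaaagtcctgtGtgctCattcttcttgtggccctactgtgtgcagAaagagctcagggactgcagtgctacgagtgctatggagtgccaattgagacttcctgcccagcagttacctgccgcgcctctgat
Ly6c2: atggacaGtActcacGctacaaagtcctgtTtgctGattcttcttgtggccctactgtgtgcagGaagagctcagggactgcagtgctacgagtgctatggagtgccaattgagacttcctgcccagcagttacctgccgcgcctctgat
For the other markers the share of such windows was 6.05% for *Cd55*, most of it with its paralog *Cd55b*, 5.87% for *Ly6a*, 4.02% for *Pdgfra*, 2.50% for *Dpp4*, 2.35% for *Pi16*, 1.09% for *Anxa3* and 1.02% for *Cd34*, and 0 for *Dpt* and *Clec3b*. The library kit does not mark strand, and antisense genes are annotated across *Pi16*, *Dpp4*, *Dpt*, *Cd34*, *Cd55* and *Pdgfra*. Their reads cannot be told from those of the markers in the shared windows, which were sought on both strands. The share of windows with the antisense gene ran from 0.58% for *Cd55* to 3.08% for *Pdgfra*, and *Dpt* had none.

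*Cd55*, a surface protein that protects cells from complement (chr1:130439027-130462744, minus strand), was at 104, 103, 123, 166, 223 and 48.3 FPKM in P1 to P6. Within P1 to P5 it was highest in P5 and lowest in P1 and P2. Like *Dpp4*, it was lower in CD105+ cells, at 0.623 times (0.610 to 0.636) for P2 over P4 and 0.550 times (0.540 to 0.5605) for P3 over P5. P5 exceeded P4 by 1.35 times (1.32 to 1.37) and P3 exceeded P2 by 1.19 times (1.16 to 1.22), whereas P1 and P2 could not be told apart, at 1.01 (0.987 to 1.03), and swapped places with a common sum of FPKM and with quantile normalization. Its paralog *Cd55b*, listed as *Daf2*, kept a nearly fixed proportion to it, with *Cd55* at between 7.05 and 8.07 times its FPKM in the 6 libraries.

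*Cd34*, a sialomucin of progenitor and endothelial cells (chr1:194938819-194961279, plus strand), was at 393, 345, 277, 565, 498 and 428 FPKM in P1 to P6. Its highest level was 2.04 times its lowest over the 6 populations, the narrowest range of the 10 markers. P4 and P5 were above P1 to P3, but after division by *Gapdh* P5 fell below P1 and P2. The order of P6 against P1 turned round under that division and with the median of ratios. P2 was at 0.611 times P4 (0.604 to 0.618), and P3 was at 0.556 times P5 (0.549 to 0.563).

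*Anxa3*, which encodes an annexin, a protein that binds membranes with calcium (chr5:96793339-96845966, plus strand), was at 220.3, 80.1, 53.9, 107, 30.7 and 80.5 FPKM in P1 to P6. It was the marker with the largest ratio of P1 over P2, 2.75 times (2.57 to 2.94), and P4 exceeded P5 by 3.49 times (3.15 to 3.87). P6 and P2 could not be told apart, at 1.005 (0.916 to 1.101), and their order turned round with the median of ratios and with division by *Gapdh*. Across CD105 it moved in opposite directions, at 0.747 times (0.693 to 0.805) for P2 over P4, which became 1.04 after division by *Gapdh*, and at 1.75 times (1.56 to 1.97) for P3 over P5.

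Comparisons along ALDH activity asked how the markers differed between cells sorted for more or less of it. In P1 over P2, 1 of 10 markers was higher, *Anxa3*, against 0.957% of 11803 genes, and none was lower, against 4.23%. In P2 over P3, *Pi16* and *Dpp4* were higher, 2 of 10 against 1.09% of 11980 genes, and none was lower, against 2.56%. In P4 over P5, 7 of 10 were higher, all but *Cd34*, *Cd55* and *Pdgfra*, against 3.93% of 12022 genes, and none was lower, against 1.44%. The median log2 ratio of the markers was 0.34, 0.51 and 1.13 in these comparisons, and that of all genes was -0.05, -0.03 and -0.04. P2 enters both of the first 2 comparisons.

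Chosen after the values were seen, the order P1 above P2 above P3 together with P4 above P5 was shown by 8 of 10 markers, all but *Cd55* and *Pdgfra*, against 16.3% of 12904 genes. Between 7 and 9 markers showed it under the 4 scalings of the libraries, since quantile normalization removed *Pi16*, and the median of ratios and division by *Gapdh* each added *Pdgfra*. Pancreatic acinar genes differed in the same comparisons. All 14 were found, and they summed to 4.48, 249.7, 26.2, 1339, 160.2 and 1950.5 FPKM in P1 to P6. *Amy2a5* had the highest level in P2 to P6 and *Cela1* in P1, at 1.78 FPKM, where *Zg16* was at 0. They were higher in P2 than in P3 and in P4 than in P5, as most of the markers were, but lower in P1 than in P2. Of 6 mural markers tested, 5 were lower in P1 over P2, 2 in P2 over P3 and 1 in P4 over P5, with none higher. Of all genes, 4.23%, 2.56% and 1.44% were lower there. The part of either list in the marker levels was not tested.

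**Figure D3:**
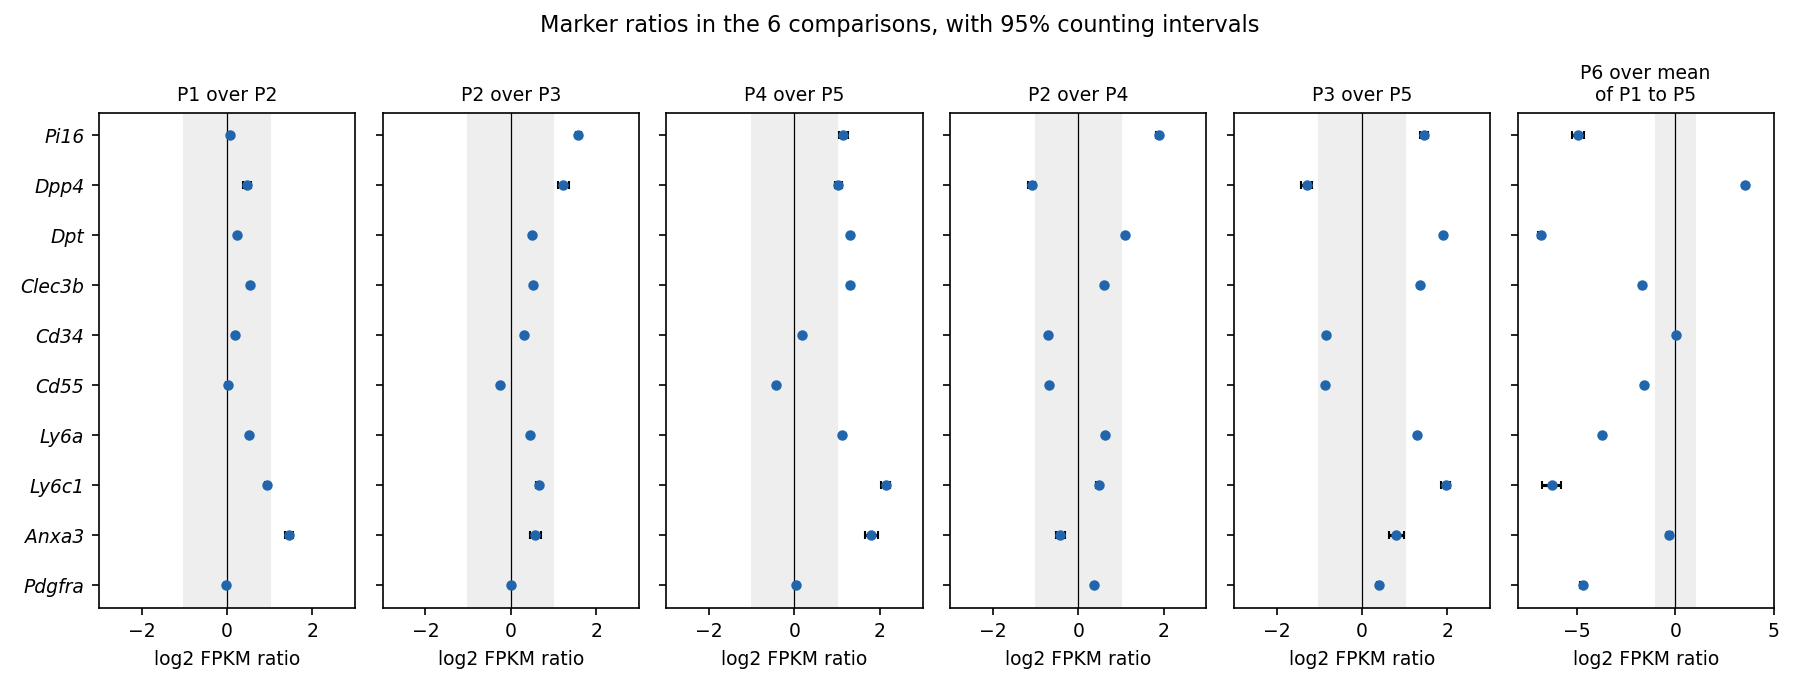
Log2 ratio of FPKM for each marker in the 6 comparisons, with bars for the 95% counting interval and a grey band within 2 times. The axis of P6 over the mean of P1 to P5 is wider, since *Dpt* was 113 times lower there. *Cd55* was the marker below 0 in both P2 over P3 and P4 over P5.

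Comparisons across CD105 asked how the markers differed at matched ALDH activity, in the same P2 to P5 libraries as above. In P2 over P4, *Pi16* and *Dpt* were higher, 2 of 10 against 4.90% of 12181 genes, and *Dpp4* was lower, 1 of 10 against 7.63%. The call of *Dpt* was lost with quantile normalization. In P3 over P5, 5 of 10 were higher, *Pi16*, *Dpt*, *Clec3b*, *Ly6a* and *Ly6c1*, against 7.33% of 12152 genes, and *Dpp4* was lower, 1 of 10 against 6.29%. Both counts of 1 lower marker are close to the share of all genes. The median log2 ratio of the markers was 0.43 and 1.05, and that of all genes -0.08 and -0.09. In P5, *Dpp4*, *Cd34* and *Cd55* had a higher level than in P3, 3 of 10 markers against 61.0% of 12904 genes. Over P1 to P5, the highest level was at least 2 times the lowest for 9 of 10 markers, all but *Pdgfra*, against 27.4% of genes. *Cd34* and *Cd55* passed narrowly, at 2.04 and 2.16 times, and this count was not recalculated under the scalings. The mesothelial and acinar sums given above were higher in P4 than in P2 and in P5 than in P3. Of the acinar genes, 14 of 14 were lower in both comparisons, with median log2 ratios of -2.43 and -2.62, and of the mesothelial genes 10 of 11 and 9 of 10 were lower. The part of either in these ratios was not tested.

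The scaling of libraries bore on the CD105 comparisons. *Gapdh* itself was at 214 to 224 FPKM in P1 to P3 and at 302, 326 and 270.4 in P4, P5 and P6. Division by it moved the median log2 ratio of all genes by 0.47 in P2 over P4, by 0.54 in P3 over P5 and by 0.11 in P4 over P5. Quantile normalization moved it by 0.12 in P2 over P4. Division by *Gapdh* also put *Clec3b* and *Ly6a* past 2 times in P2 over P4 and *Anxa3* in P3 over P5, and the median of ratios put *Ly6c1* past 2 times in P1 over P2. Over all genes, 597 were higher and 930 lower in P2 over P4, and 1252 and 609 after division by *Gapdh*. In P3 over P5 these counts were 891 and 764, and 1658 and 401 after division. In P1 over P2 they were 113 and 499, and 166 and 398 after quantile normalization.

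The comparison of P6 with the mean of P1 to P5 asked how the markers stood in CD140a-low cells, and uses each library described above. Of 10 markers, 7 were lower, against 10.3% of 12904 genes, and *Pdgfra* was among them through the gate. *Dpp4* was higher, by 11.5 times (11.2 to 11.8), and this 1 of 10 is close to the 11.8% of all genes. *Dpt* was lower by 113 times (104 to 124), *Ly6c1* by 76.3 times (55.4 to 108), *Pi16* by 30.4 times (25.1 to 37.2) and *Ly6a* by 13.1 times (12.4 to 13.8). *Clec3b* was lower by 3.22 times (3.16 to 3.28) and *Cd55* by 2.98 times (2.89 to 3.07). *Cd34* and *Anxa3* lay within 2 times, at 1.03 (1.02 to 1.04) and 0.817 (0.757 to 0.881), and the first fell below 1 with the median of ratios and with division by *Gapdh*. With *Pdgfra* left out, 6 of 9 markers had their lowest level in P6, against 25.6% of genes. The median log2 ratio was -1.69 for the 9 markers without *Pdgfra*, of which 6 were lower and 1 higher, and -2.70 with it. That of all genes was 0.08, and 3 of the 4 scalings, all but a common sum of FPKM, lowered the latter by 0.11 to 0.12. Mesothelial and acinar genes had their highest sums in this library, as given above. Of 10 adipocyte markers, 8 of 9 tested were also higher here, with a median log2 ratio of 4.42. They summed to 12.7, 17.4, 17.4, 11.9, 12.2 and 181 FPKM in P1 to P6, and *Cfd*, the most abundant of them in P6, reached 114 FPKM there against 0.337 in P1, while *Lep* was listed at 0 in P6. Of the endothelial markers, 3 of 4 tested were higher and 1 lower. The part of these genes was not tested.

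**Figure D4:**
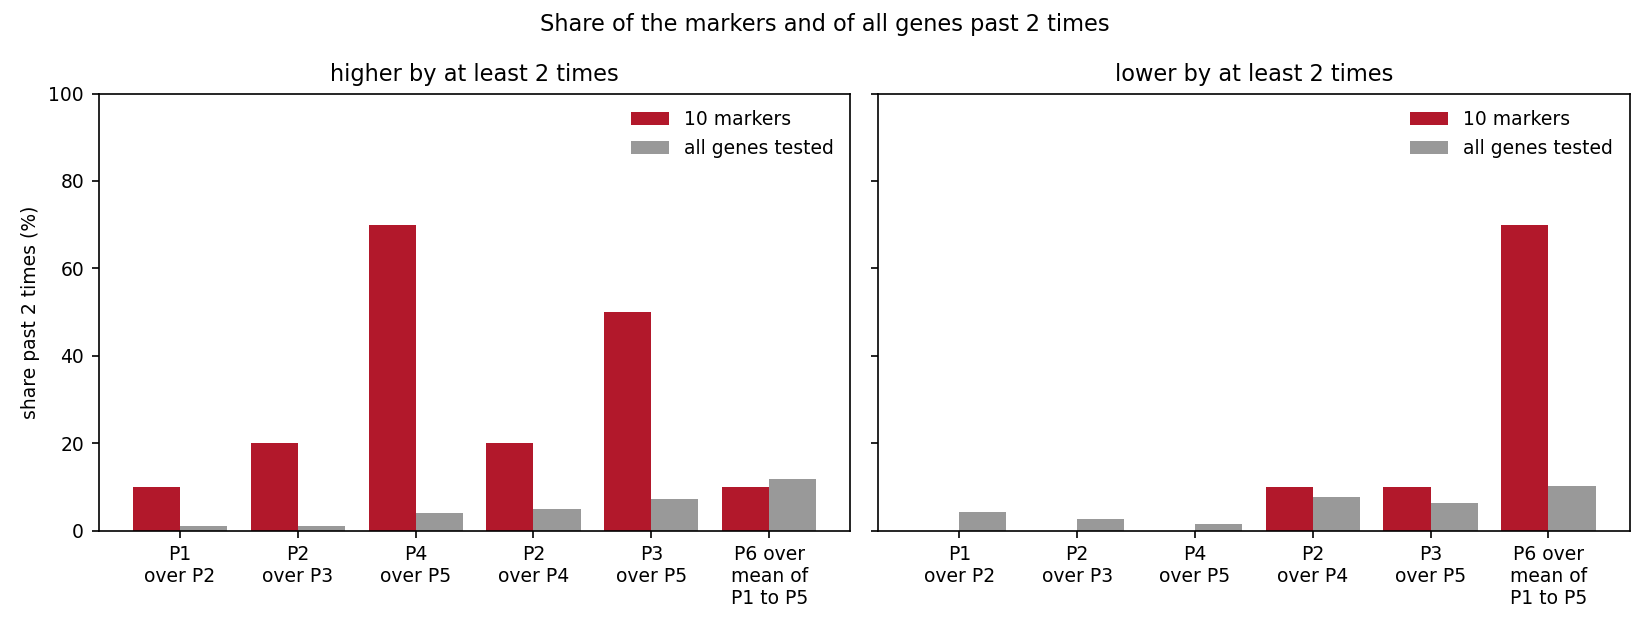
Share of the 10 markers and of all genes tested that were higher (left) or lower (right) by at least 2 times in each comparison, in percent. In P4 over P5, 7 of 10 markers were higher against 3.93% of genes, and in P6 over the mean of P1 to P5, 7 of 10 were lower against 10.3%, or 6 of 9 without *Pdgfra*, a gene of the gate.

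Together the 10 markers summed to 6985, 5134, 3682, 3579, 1942 and 1126 FPKM in P1 to P6, or 1.71%, 1.29%, 0.944%, 0.879%, 0.491% and 0.293% of all FPKM. All 10 were at 1 FPKM or more in each library. The lowest member level was that of *Dpp4* in P1 to P5 and of *Pi16* in P6.

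Other genes known from *Pi16*+ *Dpp4*+ fibroblasts were read beside the markers. Of 24 such genes, 19 showed the order P1 above P2 above P3 with P4 above P5, against 16.3% of 12904 genes. *Pcolce2*, *Cd248* and *Fbn1* were among them. The reverse order was shown by 1, *Il33*, at 54.2, 110, 116, 130 and 169 FPKM in P1 to P5. In P4 over P5, 16 of 23 were higher and none lower, with a median log2 ratio of 1.49. In P1 over P2, 3 of 21 were higher and 1 lower, and in P2 over P3, 4 of 22 were higher and none lower. In P2 over P4, none of 22 was higher and 2 were lower, with a median of 0.07, and in P3 over P5, 9 of 21 were higher and 2 lower. The 2 lower genes were *Wnt2* and *Igfbp6* in both. In P6 over the mean of P1 to P5, 12 of 23 were lower and 2 were higher, *Bmp7* and *Igfbp6*. The shares of all genes in these comparisons are those given for the markers. *Pcolce2*, which enhances collagen processing, was at 252, 138, 75.4, 102, 19.9 and 1.69 FPKM in P1 to P6, close to the course of *Ly6c1*. *Igfbp6*, which binds insulin-like growth factor, was at 261, 331, 245, 905, 750.5 and 2783 FPKM in P1 to P6, and like *Dpp4* had its highest level in P6. *Gsn* is listed at 0 in P1, P2 and P3 and at 5350.4 FPKM in P4, and it was left out of the counts of higher and lower genes where a library was at 0, though it is among the 24. It is 1 of 10 genes listed at 0 in a library and at 100 FPKM or more in another, so that such a 0 cannot be read as absent RNA, and these genes were kept among all genes.

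The genes whose profile was most like that of a marker were sought among 9780 genes with at least 5 FPKM in a library, by the root mean square difference of centred log2(FPKM + 0.1) over the 6 libraries. For *Pi16* they were *Col14a1* at 0.359, *Mmp2*, *Pth1r*, *Wbscr17* and *Cygb* at 0.402. For *Dpp4* they were *Abca4* at 0.312, *Pianp*, *Rph3al*, *Spata13* and *Fam46b* at 0.442. *Fam46b* was at 2.05 FPKM in P1 and 44.8 in P6. For the median profile of the 10 markers they were *Coro2b* at 0.116, *Gfpt2*, *Irak3*, *C1qtnf5* and *Vash1* at 0.147.

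Markers of other fibroblast states were read in the same comparisons. Of all genes, 0.957% were higher and 4.23% lower in P1 over P2, 1.09% and 2.56% in P2 over P3, and 3.93% and 1.44% in P4 over P5. The shares were 4.90% and 7.63% in P2 over P4, 7.33% and 6.29% in P3 over P5, and 11.8% and 10.3% in P6. Of 17 preadipocyte genes, none was higher and 1 lower in P1 over P2, and none was called in P2 over P3. In P4 over P5, 5 of 16 were higher, and in P2 over P4 and P3 over P5, 8 and 11 of 17 were higher, with none lower in these 3. In P6 over the mean of P1 to P5, 11 of 17 were lower and 2 higher, so that this list moved with most of the 10 markers there. Of 10 genes of *F3*+ regulatory stroma, 5 of 9 tested were lower in P1 over P2, where 1 of 10 markers was higher and none lower. None of 9 was called in P2 over P3, 2 of 8 were higher in P4 over P5, 5 of 9 in P2 over P4 and 6 of 9 in P3 over P5, and in P6 5 of 9 were lower and 3 higher. Of 12 fibroblastic reticular cell genes, 8 were tested. *Cxcl13*, at 209, 304, 2090, 825, 3464 and 47.4 FPKM in P1 to P6, was the 1 gene of these called in P2 over P3 and in P4 over P5, lower in both. *Pdpn* was at 84.6 FPKM in P2 and 78.8 in P3, and at 120.04 in P4 and 103 in P5. In P1 over P2, *Matn2* was lower, 1 of the 8, and none was higher, with a median log2 ratio of -0.566. In P2 over P4, 3 of the 8 were higher and 2 lower, in P3 over P5 4 were higher, and in P6 5 were lower and 1 higher. Of 27 family members and partners of the markers 26 were found, and 2 of 23 tested were higher in P4 over P5, *Ly6c2* and *Ly6i*. In P1 over P2, 2 of 24 were lower, and in P2 over P3 1 was higher and 1 lower. In P2 over P4, 5 of 24 were higher and 1 lower, in P3 over P5 7 of 23 were higher and 1 lower, and in P6 7 of 24 were lower and 1 higher. The 10 hematopoietic markers summed to 22.4, 34.3, 30.1, 16.4, 11.3 and 47.0 FPKM in P1 to P6, and *Lyz2* was the most abundant in each library. Of these, none of 6 tested was called in P1 over P2 and none of 3 in P4 over P5. In P2 over P3, 2 of 6 were higher, *Cd79a* and *Laptm5*. Higher were also 4 of 6 in P2 over P4, 3 of 4 in P3 over P5 and 2 of 6 in P6, and none was lower. The 9 mural markers summed to 74.0, 184, 294, 209.9, 346 and 106 FPKM, and 5 of 6 tested were lower in P1 over P2, 2 of 6 in P2 over P3 and 1 of 6 in P4 over P5, with none higher in these 3. In P2 over P4 2 of 6 were higher and 2 lower, in P3 over P5 1 was higher and 2 lower, and in P6 3 of 8 were higher and 4 lower. The part of either list in the marker levels was not tested. No reference gene of 10 passed 2 times in any of the 6 comparisons. Of the ALDH genes, *Aldh1a2* was at 469, 78.8, 134, 285, 145 and 209 FPKM in P1 to P6, so that it was lowest in P2. *Aldh1a1* was at 41.4, 63.4, 64.7, 78.3, 90.7 and 129 and *Aldh1a3* at 19.5, 38.2, 23.3, 8.99, 6.73 and 0.642, both lower in P1 than in P2.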

How the data were processed

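The authors deposited FPKM values per gene for 6 libraries, and the submitters' processing notes name TopHat2 2.0.7, Cufflinks 2.1.1 and mm10. Reads were single-end. How genes were annotated or filtered, and how mice were pooled, is not stated in the sources used here. The members and lists were chosen with earlier results of these data known.

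In each library 495 rows repeated a symbol and were summed, and no marker was among them. Depth was estimated from genes with 1 transcript of at least 800 nt, with transcript length less 200 nt, a fragment length that was assumed and then kept because whole reads were most frequent near it. At the depth chosen, between 45.0% (P4) and 60.3% (P5) of the values worth 10 reads or less were within 0.05 of a whole number, where an even spread gives 10%. The depth was fitted to such values, so reads are estimates and no count test was run. Reads used the shortest annotated coding transcript, which widens the intervals, and the intervals are Clopper-Pearson. Ratios used FPKM + 0.1, and printed ratios with an interval are of FPKM itself. Genes named were the 10 markers, up to 4 of the most abundant and 4 of the most changed genes of each list, and the 5 genes most like *Pi16*, *Dpp4* and the median profile. Those outside this rule were chosen after their values were seen. Scripts were checked on simulated data and ran in Python 3.11.15 with matplotlib 3.10.9, scipy 1.17.1, pandas 2.3.3 and numpy 2.4.6. Alternatives were the pseudocount, the minimum, the fold, 4 scalings, repeated symbols and the populations in the mean.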

Additional observations from a re-analysis of the deposited data

Results flagged for a closer look

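*Anxa3* moved in opposite directions across CD105 at the 2 levels of ALDH activity. P2 was at 0.747 times P4 (0.693 to 0.805), and P3 was at 1.75 times P5 (1.56 to 1.97), with 1 library for each population. The difference between these 2 ratios was not tested. After division by *Gapdh* the first ratio was 1.04, so that the opposite direction was lost under that scaling.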

How the results depend on the processing

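Of 158 counts of markers under another setting, 138 stayed within 1.5 times the reported count and 20 moved. Some of these settings could not move a count of markers. No marker was on a repeated symbol, and every marker passed the minimum at each setting of it. In 360 recalculated ratios of markers, 159 left the counting interval and 11 crossed 1, and no called ratio changed direction. At a fold of 1.5, the markers higher in P1 over P2 numbered 2 and in P2 over P4 4, and the markers lower in P2 over P4 and in P3 over P5 numbered 3 each. At a fold of 3, the higher markers numbered 0 in P1 over P2, 0 in P2 over P3, 2 in P4 over P5, 1 in P2 over P4 and 2 in P3 over P5, and the lower numbered 0 in P2 over P4 and 0 in P3 over P5. With a pseudocount of 1, 1 was higher in P2 over P3 and 0 were lower in P2 over P4. With the median of ratios, 2 were higher in P1 over P2 and 0 lower in P2 over P4. Division by *Gapdh* gave 4 higher and 0 lower in P2 over P4 and 0 lower in P3 over P5. Quantile normalization, which lost *Dpt*, gave 1 higher and 0 lower in P2 over P4. The cause of the scaling differences was not tested. The order of populations along ALDH activity and its alternatives were chosen after seeing the data. No paired analysis was possible because there was 1 library for each population, and the spread between mice and sorts is unknown. Depth limits *Pi16* and *Ly6c1* in P6 most, with about 104 and 37 reads.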
